A study of Caenorhabditis elegans with 2 samples.

Results

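SNPC-4 was mapped by chromatin immunoprecipitation and sequencing in whole young adult hermaphrodites of Caenorhabditis elegans, and the peaks described here are those at noncoding RNA genes outside the classical small RNA classes. The single group held 2 biological replicates of strain YL551, collected 60 h after L1 synchronization. This line carries a stable C-terminal GFP-FLAG tag on SNPC-4, and the tagged protein was recovered with an antibody against GFP. No untagged strain and no input library were analysed here, and whole animals mix germline and somatic nuclei. A summit, the highest point of a peak, was counted when it lay within 250 bp of a gene annotated as ncRNA, lncRNA, antisense RNA or scRNA. Summits within 250 bp of an snRNA, tRNA, snoRNA, rRNA, piRNA or miRNA gene were left out, as was rpr-1, the gene for the RNA of RNase P. Of 2926 nuclear summits that passed the authors' filter on irreproducible discovery rate (IDR), 252 met the rule. They lay in 243 regions and were assigned to 240 of the 8056 genes of these biotypes, each to the nearest gene body.

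SNPC-4 belongs to SNAPc, the complex that activates small nuclear RNA genes. SNAPc binds a proximal sequence element just upstream of small RNA genes and recruits RNA polymerase II or III. In C. elegans, SNPC-4 is known from snRNA, spliced leader (SL) RNA and piRNA genes. In vertebrates, the genes for the RNA of RNase MRP and for Y RNAs are transcribed by RNA polymerase III from promoters that pair a proximal sequence element with a TATA box. Most of the genes counted here carry no function in the annotation, which calls them unclassified noncoding RNAs, and they are named by their sequence identifiers.

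Most of the strongest peaks sat just upstream of short genes. The DNA before some of these genes is shown because short words recur there, as a pair or alone. yrn-1, a gene with a weaker peak (signal 649), is added. Each line gives 80 bases before and the first 10 bases of a gene, 5′ to 3′ on the gene's strand, from the RefSeq genome of WBcel235, the assembly also named ce11. Capitals mark TGTCNG, a word resembling those before snRNA genes, and TATATA, where the word lies wholly before the 5′ end. Both words were chosen after these sequences had been seen.
F08G2.13 (chrII:13834514-13834603, minus strand): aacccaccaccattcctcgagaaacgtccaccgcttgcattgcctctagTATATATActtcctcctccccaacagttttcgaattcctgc
W01D2.7 (chrII:14804422-14804511, plus strand): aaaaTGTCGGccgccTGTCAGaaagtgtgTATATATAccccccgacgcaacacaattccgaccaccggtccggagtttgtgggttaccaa
mrpr-1 (chrII:7200153-7200242, plus strand): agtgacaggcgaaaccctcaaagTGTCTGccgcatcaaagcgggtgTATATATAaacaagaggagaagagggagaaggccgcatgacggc
W01D2.8 (chrII:14801418-14801507, minus strand): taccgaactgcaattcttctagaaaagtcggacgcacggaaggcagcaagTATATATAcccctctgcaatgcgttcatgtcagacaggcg
C18C4.17 (chrV:5576142-5576231, plus strand): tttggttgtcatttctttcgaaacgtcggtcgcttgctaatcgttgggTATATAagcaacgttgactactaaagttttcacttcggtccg
M163.12 (chrX:14477465-14477554, plus strand): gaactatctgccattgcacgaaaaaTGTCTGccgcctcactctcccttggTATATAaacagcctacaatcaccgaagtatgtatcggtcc
CD4.18 (chrV:5587205-5587294, plus strand): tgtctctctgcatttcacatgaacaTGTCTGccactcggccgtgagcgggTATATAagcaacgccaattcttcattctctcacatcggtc
yrn-1 (chrIV:7499428-7499517, plus strand): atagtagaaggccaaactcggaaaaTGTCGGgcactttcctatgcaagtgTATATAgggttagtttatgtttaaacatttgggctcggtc
Before mrpr-1, the gene for the RNA of RNase MRP, TGTCNG began 57 bp and TATATA 34 bp upstream of the 5′ end. The words began 55 and 30 bp upstream in M163.12, and also 55 and 30 bp upstream in CD4.18. F08G2.13, W01D2.8 and C18C4.17 held TATATA at 28 to 32 bp upstream without TGTCNG wholly before the 5′ end. In W01D2.8 a match to TGTCNG ran across the 5′ end and is in lower case. In W01D2.8 and C18C4.17 the looser word GTCNGNCG began 54 and 56 bp upstream.

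Other strong peaks lay at genes with TGTCNG and no TATATA in the same window. Examples are shown in the same way to set the words side by side. lfor-1, a gene with a weaker peak (signal 691) and its summit 55 bp past the 5′ end, is added. ZK265.11, which is not printed, also held TGTCNG without TATATA, 47 bp upstream.
T19C4.16 (chrV:11176846-11176935, plus strand): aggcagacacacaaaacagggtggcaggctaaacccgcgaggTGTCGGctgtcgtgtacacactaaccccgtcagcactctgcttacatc
K08B5.8 (chrX:16564650-16564739, plus strand): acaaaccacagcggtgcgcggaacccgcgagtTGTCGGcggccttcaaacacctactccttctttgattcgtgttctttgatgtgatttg
lfor-1 (chrII:14636084-14636173, minus strand): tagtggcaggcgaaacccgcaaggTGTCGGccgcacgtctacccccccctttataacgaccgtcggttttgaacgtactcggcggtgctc
TGTCNG began 38 bp upstream of T19C4.16, 48 bp upstream of K08B5.8 and 56 bp upstream of lfor-1.

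Several of the strongest genes also resembled each other within the transcribed part. The whole genes are printed on their own strand, with the words GGTCCGG and then GGGTTA in capitals, and likewise TTGAC. These words, too, were picked after the sequences had been seen.
F08G2.13 (chrII:13834449-13834523, minus strand): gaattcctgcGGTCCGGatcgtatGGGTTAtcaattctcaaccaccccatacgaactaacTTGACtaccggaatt
W01D2.8 (chrII:14801350-14801427, minus strand): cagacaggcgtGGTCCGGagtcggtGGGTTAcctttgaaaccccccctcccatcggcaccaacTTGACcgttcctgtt
C18C4.17 (chrV:5576222-5576373, plus strand): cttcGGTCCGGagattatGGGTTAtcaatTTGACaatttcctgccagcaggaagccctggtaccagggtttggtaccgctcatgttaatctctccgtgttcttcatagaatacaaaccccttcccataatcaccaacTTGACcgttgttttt
M163.12 (chrX:14477545-14477622, plus strand): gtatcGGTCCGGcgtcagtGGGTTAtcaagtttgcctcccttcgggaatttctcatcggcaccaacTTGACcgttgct
CD4.18 (chrV:5587285-5587418, plus strand): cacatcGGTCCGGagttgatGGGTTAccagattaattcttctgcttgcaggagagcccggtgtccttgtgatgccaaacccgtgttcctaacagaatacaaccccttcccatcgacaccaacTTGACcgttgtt
F08G2.12 (chrII:13834887-13834954, minus strand): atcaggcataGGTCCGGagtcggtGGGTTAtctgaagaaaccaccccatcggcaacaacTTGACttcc
GGTCCGG began at base 5 to 12 of these genes, and GGGTTA began 14 bases after the start of GGTCCGG in all 6. Where TATATA was present, its first base lay 35 to 41 bases before GGTCCGG. In W01D2.7, GGTCCGG began 14 bp upstream of the annotated 5′ end and 37 bases after TATATA. The last TTGAC began 9 to 16 bases from the annotated 3′ end in these genes and W01D2.7.

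Across the genome, 10 of the 8056 genes, or 0.124%, held GGTCCGG followed 14 bases later by GGGTTA. All 10 had an IDR summit within 250 bp, and for 9 of them it was among the 252 summits described here. Over all 8056 genes, 617 (7.66%) had an IDR summit within 250 bp, and 320 (3.97%) had one of the 252 summits. The remaining gene, B0361.13, had a summit of signal 7704 located 130 bp upstream of its 5′ end, which also lay within 250 bp of a miRNA gene and was left out by the rule. CD4.18 and CD4.19 shared a summit between them, as did M163.12 and M163.15, so the 9 genes stand for 7 summits. Only 5 of the 9 had a summit 1 to 100 bp upstream of their 5′ end. The counted summit lay 174 bp past the 5′ end at F08G2.12, 15 bp past it at CD4.17 and 172 bp upstream at CD4.19. At M163.15 it lay downstream of the gene. The words and their spacing were read from genes with strong peaks that are among the 10. These shares therefore describe the same peaks. GGTCCGG alone occurred in 31 genes. It began within the first 20 bases in 11 of them, of which 9 had a counted summit, and later in the gene in 20, of which 0 had one. The word was read from genes with strong peaks that hold it near the 5′ end, so this split describes those same genes.

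The signal, a score from the authors' peak caller with no fixed unit, spanned a wide range. Over the 252 peaks it ran from 85.0 to 7300, with a median of 153 and quartiles of 109 and 232. In the other 2674 nuclear peaks the median was 139, with a range from 84.4 to 14797, and the difference of the medians was 0.14 on the log2 scale. To compare replicates, each signal was divided by the replicate's median at nuclear IDR peaks, which gives a relative signal of 1 to a typical peak. The median relative signal was 1.13 in replicate 1 and 1.08 in replicate 2, or 1.11 ± 0.0380 (SD, n = 2), against 0.991 ± 0.00102 (SD, n = 2) for the other nuclear peaks. The median of the class was thus slightly above that of the rest in both replicates, and both sets held a small group of much stronger peaks.

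At the noncoding RNA genes that group held 14 peaks with a signal over 1000, 5.56% of the class (exact binomial 95% interval 3.07 to 9.15%). The share over all nuclear peaks, 4.2%, lies within that interval. Below the weakest of the 14, at 1392, the next peak had a signal of 691. The 14 summits lay in 11 regions, and 11 summits were upstream of their gene. In 10 of the 14 the summit was 26 to 58 bp upstream of the annotated 5′ end (median 34 bp), at genes of 58 to 209 bp.

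**Figure D1:**
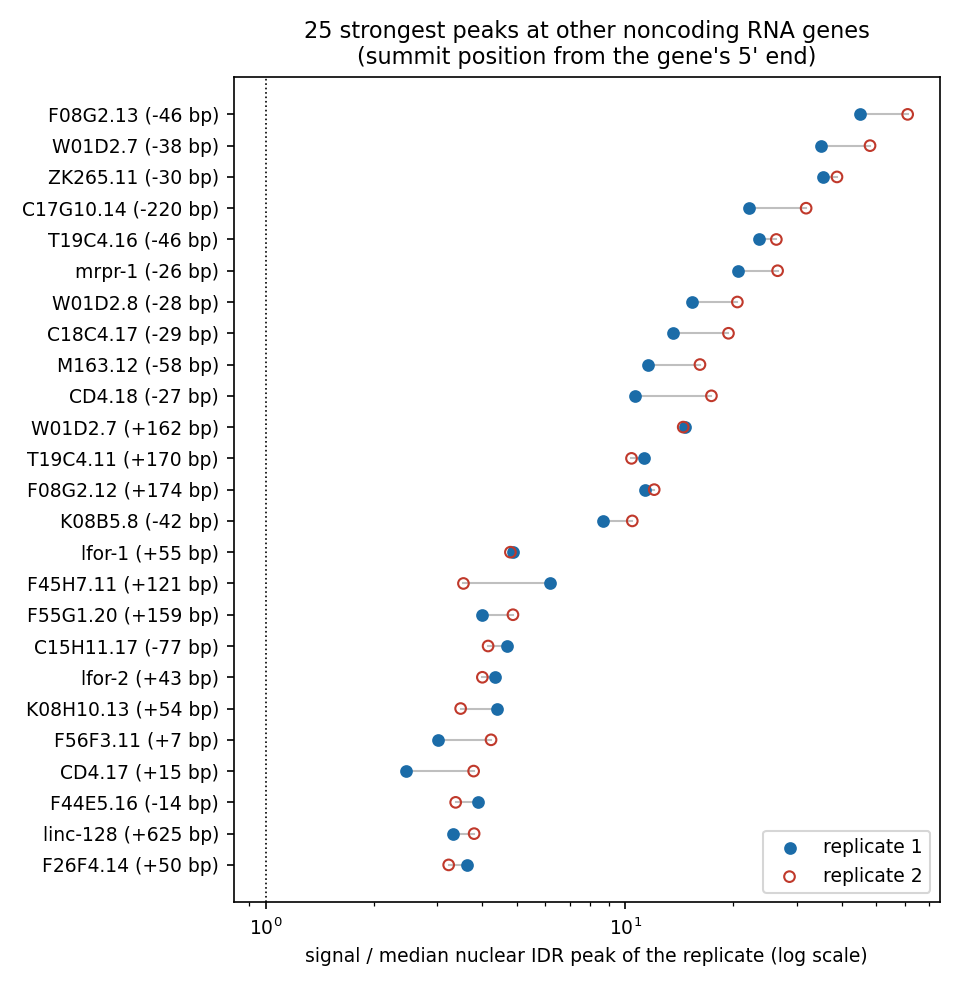
Relative signal (log scale) of the 25 strongest peaks at other noncoding RNA genes, with a filled point for replicate 1 and an open point for replicate 2 and the summit position after each gene name. The dotted line marks the median nuclear IDR peak. The 14 uppermost peaks lie above the rest in both replicates. The gap is wide in replicate 2 (10.4 against 4.87) and narrower in replicate 1 (8.70 against 6.19).

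F08G2.13, a 75-bp gene on chromosome II, had the strongest peak of the class. Its relative signal was 45.1 in replicate 1 and 61.0 in replicate 2, or 53.1 ± 11.3 (SD, n = 2), with the summit at chrII:13834569, 46 bp upstream. Another summit in the same region, assigned to F08G2.12, had 11.3 and 12.0, and it lay 174 bp downstream of the 5′ end of that 68-bp gene. F08G2.12 and F08G2.13 are both on the minus strand and share the words shown above.

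W01D2.7, a 58-bp gene with 155 bp between the summit and the 5′ end of the protein-coding gene W01D2.3, came next with 35.2 and 48.0 (41.6 ± 9.06, SD, n = 2). Its summit was 38 bp upstream. Another summit of the region had 14.7 and 14.5, 162 bp past the same 5′ end. That summit also lay 131 bp upstream of W01D2.9, another noncoding RNA gene. W01D2.8, a 78-bp gene, had 15.3 and 20.5 (17.9 ± 3.69), with the summit 28 bp upstream and in an intron of W01D2.3. W01D2.7 and W01D2.8 therefore stood many times above a typical peak in each replicate.

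ZK265.11, a 76-bp gene, had 35.5 and 38.8 (37.2 ± 2.34, SD, n = 2). The summit lay 30 bp upstream, in an annotated exon of ceh-8, a homeobox gene. T19C4.16, whose summit lay in an intron of gpa-1 on the opposite strand, had 23.5 and 26.3 (24.9 ± 2.01) with the summit 46 bp upstream. gpa-1 encodes a G protein alpha subunit. T19C4.11 lies wholly inside T19C4.16 on the same strand, and another summit of the region, assigned to T19C4.11, had 11.2 and 10.4. Peaks at such a pair cannot be given to one gene or the other.

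mrpr-1 had 20.6 in replicate 1 and 26.5 in replicate 2 (23.6 ± 4.17, SD, n = 2). Its summit at chrII:7200207 lay 26 bp upstream of the 186-bp gene. The 5′ end of the protein-coding gene pcrg-1 on the same strand was 342 bp away.

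C18C4.17, M163.12 and CD4.18 formed the next tier. C18C4.17 had 13.6 and 19.4 (16.5 ± 4.11, SD, n = 2), M163.12 had 11.6 and 16.1 (13.9 ± 3.23), and CD4.18 had 10.7 and 17.4 (14.0 ± 4.73). Their summits were 29, 58 and 27 bp upstream. The region of M163.12 held 2 more summits near the snRNA gene M163.13, with signals of 5006 and 889, and these summits share the reads of 1 region. K08B5.8, a 99-bp gene on the X chromosome with no protein-coding 5′ end within 500 bp, had 8.70 and 10.5 (9.58 ± 1.25) and a summit 42 bp upstream.

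C17G10.14 had its summit farther from the gene than the other strong upstream peaks. Its relative signal was 22.0 and 31.9 (27.0 ± 6.94, SD, n = 2), but the summit at chrII:5599709 lay 220 bp upstream of the annotated 5′ end of this 577-bp gene. The bases around that summit are shown on the plus strand because the summit, not the gene start, carries the signal here. Capitals mark GTCGG, the last bases of TGTCGG, whose first copy in this window began 1 bp after the summit.
C17G10.14 (chrII:5599679-5599769, plus strand): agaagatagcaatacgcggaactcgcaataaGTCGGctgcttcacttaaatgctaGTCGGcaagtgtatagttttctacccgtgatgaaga
The 5′ end of the protein-coding gene spig-18 was 333 bp from the summit, on the minus strand.

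The position of the summit went with the signal. Of the 252 summits, 54 lay 1 to 100 bp upstream of the 5′ end, 31 lay farther upstream, up to 250 bp away, 126 lay inside the gene and 41 lay downstream of the 3′ end. In all, 85 of 252 (33.7%, interval 27.9 to 39.9%) were upstream, and the median position was 50.5 bp past the 5′ end. The 54 summits within 100 bp upstream had a median signal of 208 and a range of 85.3 to 7300. Their median relative signal was 1.43 ± 0.0879 (SD, n = 2). It was 1.05 ± 0.0930 for the 31 farther upstream, 1.01 ± 0.0576 for the 126 inside genes and 1.04 ± 0.0854 for the 41 downstream. The last 3 groups did not differ beyond the spread of the replicates.

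The share of summits within 100 bp upstream was 71.4% (10 of 14) at signals over 1000. It was 26.7% (8 of 30) between 300 and 1000, 20% (17 of 85) between 150 and 300, and 15.4% (19 of 123) under 150. Summits inside genes numbered 1 of 14, 18 of 30, 42 of 85 and 65 of 123 in the same bins. Peaks are not replicates, and neighbouring genes share them, so these shares describe this data set and carry counting error alone. The interval of the uppermost bin ran from 41.9 to 91.6%, and that of the lowest from 9.56 to 23.1%.

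**Figure D2:**
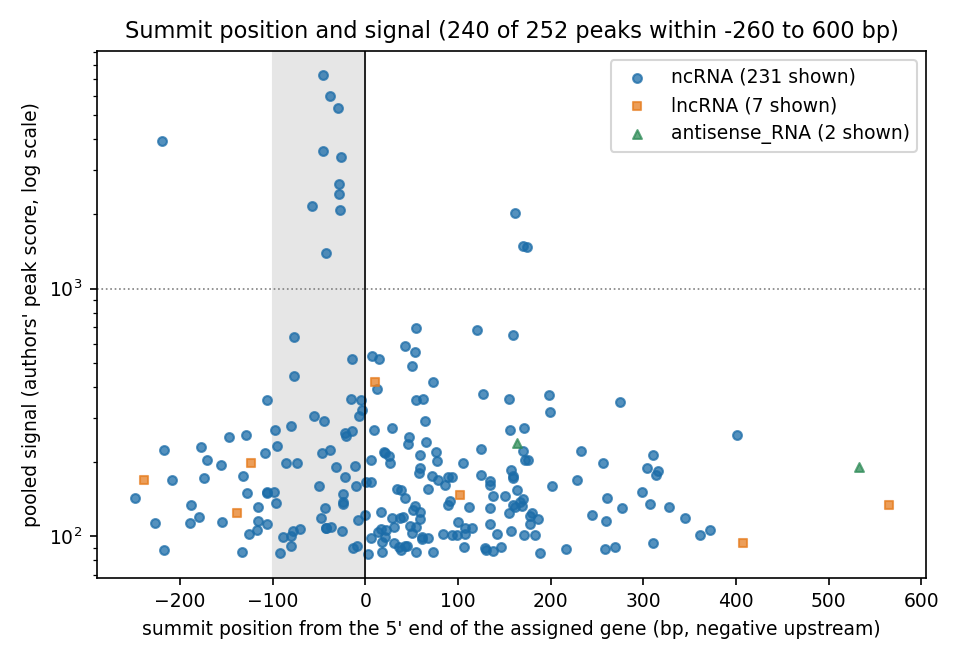
Pooled signal (log scale) against the position of the summit from the 5′ end of the assigned gene in bp, negative upstream, for 240 of the 252 peaks, by biotype. The shaded band is 1 to 100 bp upstream and the dotted line a signal of 1000. Of the 14 peaks above the line, 10 lie in the band.

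Set beside other classes, the peaks within 100 bp upstream were intermediate. Of these 54, 10 (18.5%) had a signal over 1000, against 4 of the 198 other noncoding RNA peaks (2.02%). The share was 40.6% at the 106 peaks near snRNA and SL RNA genes, 29.5% at the 105 near snoRNA genes and 0.781% at 1024 peaks near protein-coding 5′ ends away from any RNA gene. The median relative signal was 1.43 ± 0.0879 for the 54 peaks and 1.03 ± 0.0407 for the 198. It was 5.16 ± 0.0709 for snRNA and SL RNA genes, 2.00 ± 0.124 for snoRNA genes and 0.911 ± 0.0574 for protein-coding 5′ ends (SD, n = 2 each).

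**Figure D3:**
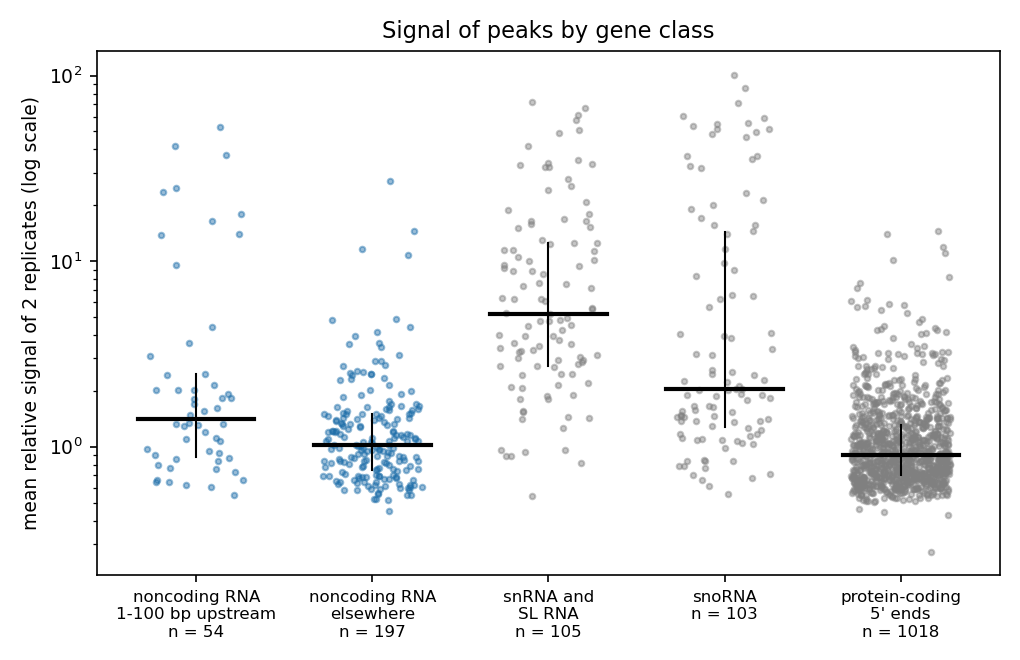
Mean relative signal of both replicates (log scale) for each peak, by gene class, with the noncoding RNA peaks in blue. Thick bars are medians and thin lines span the quartiles. The peaks 1 to 100 bp upstream of noncoding RNA genes have most of their values near those of protein-coding 5′ ends and a separate upper group that reaches the range of snRNA genes.

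Both replicates ranked most of these peaks highly. Of the 252 peaks, 197 (78.2%, interval 72.6 to 83.1%) overlapped one of the 2950 strongest candidate regions in each replicate, against 74.4% of all nuclear peaks. The signal in the replicates differed by more than 2-fold after scaling in 19 of 252 (7.54%), against 7.37% of the other nuclear peaks. For 1 peak there was no candidate region in 1 of the replicates. Across the other 251 peaks, Spearman's rho between replicates was 0.807, against 0.725 across 2656 other nuclear peaks. The points share the libraries, so the rho is given without a test. All of these peaks had passed the authors' filter on irreproducible discovery rate, so agreement between the replicates is partly set by that selection.

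Of the 14 strongest peaks, 12 had a higher relative signal in replicate 2, with a median log2 difference (replicate 1 over replicate 2) of -0.39. The same held for 88 of the 109 other nuclear peaks over 1000, with a median of -0.21. Over 251 of the noncoding RNA peaks the median was -0.05. The largest disagreements were at weak peaks. F59B10.7 had 0.203 in replicate 1 and 1.18 in replicate 2, F54F2.13 had 0.891 and 0.155, and F45H7.13 had 1.36 and 0.388. At F54F2.13 and F45H7.13, a region among the strongest candidates of replicate 2 also overlapped the peak. The values given are those of the overlapping region with the nearest summit. The low values of F54F2.13 and F45H7.13 therefore do not show that replicate 2 lacked signal there.

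**Figure D4:**
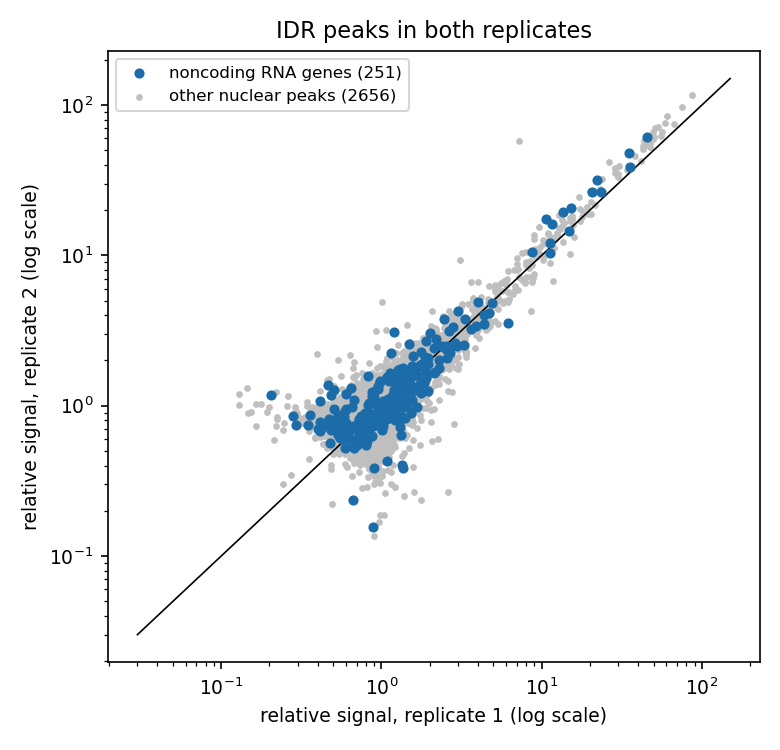
Relative signal in replicate 2 against replicate 1 (both log scale) for 251 noncoding RNA peaks in blue and 2656 other nuclear peaks in grey, with the line of equal values. The strongest blue points lie along the line among the strongest grey ones, slightly above it, and the scatter widens at relative signals near 1.

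Below the leading group, lfor-1 and lfor-2 had relative signals of 4.88 and 4.79 (4.84 ± 0.0631, SD, n = 2) for lfor-1, and 4.34 and 4.01 (4.17 ± 0.233) for lfor-2. Their summits lay inside the genes, 55 and 43 bp past the 5′ ends. The genes, of 299 and 302 bp, were 98.3% identical, so reads of one cannot be told from the other with confidence. The central 51 bases at the summit of lfor-2 occurred 3 times in the genome.

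The srpr genes, named for the RNA of the signal recognition particle, also include close copies. The family has 5 members, of which srpr-1.1 and srpr-1.2 had 2 summits each, srpr-2.1 had 1, and srpr-2.2 and srpr-3 had 0. The highest signals were 183 at srpr-1.1, 180 at srpr-1.2 and 167 at srpr-2.1, all near the median of the class. srpr-1.1 and srpr-1.2 were 98.3% identical and srpr-2.1 and srpr-2.2 99.0%, while an srpr-1 and an srpr-2 gene were 94.0 to 94.3% identical and srpr-3 was 81.6 to 82.6% identical to the others. The closest pairs limit how far signal can be placed at any one copy. In all, 6 of the 252 peaks had central bases that recur in the genome, with 47 copies for Y71H9A.9.

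yrn-1, the gene for the worm Y RNA and the only gene of biotype scRNA, had a summit 24 bp upstream of its 5′ end with a signal of 649. The annotation places the overlapping gene F55G1.20 on the opposite strand, and the summit was assigned to it because it falls inside that gene body. The relative signal was 4.01 in replicate 1 and 4.87 in replicate 2 (4.44 ± 0.613, SD, n = 2). As shown above, yrn-1 has both TGTCGG and TATATA before it.

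Long and antisense RNAs had few peaks, and 0 of these had a signal over 1000. Of 194 lncRNA genes 13 (6.70%) had a summit within 250 bp, against 302 of 7761 ncRNA genes (3.89%) and 4 of 100 antisense RNA genes. Over all 8056 genes it was 617 (7.66%) when summits near other RNA classes were also counted. The window of 250 bp around the gene body covers more DNA at longer genes. The median length of the assigned gene was 1256 bp at lncRNA peaks and 147 bp at ncRNA peaks. The 15 peaks assigned to lncRNA genes had a median signal of 168 and a highest of 508, with 0 over 1000. Their median relative signal was 1.17 ± 0.0688 (SD, n = 2). The 3 peaks at antisense RNA genes had signals of 190 to 238, a median of 228 and a median relative signal of 1.57 ± 0.0161. The 234 at ncRNA genes had a median signal of 150, a range of 85.0 to 7300 and a median relative signal of 1.09 ± 0.0268.

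linc-128 had the strongest of them, with a relative signal of 3.33 and 3.80 (3.56 ± 0.334, SD, n = 2) at 625 bp into a 2302-bp gene. linc-169 had 3.28 and 2.54 (2.91 ± 0.522) at 10 bp past its 5′ end, and linc-109 had 2.94 and 2.48 (2.71 ± 0.328) at 3211 bp into a 4409-bp gene. Only 3 of the 15 summits were upstream of the 5′ end and 9 were inside the gene. All 3 antisense RNA peaks were inside their genes. anr-36 had 1.71 and 1.58, anr-20 had 1.26 and 1.66, and F48C1.15 had 1.56 and 1.31.

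Gene length did not order the signal. Spearman's rho between length and signal was 0.04 over the 252 peaks, given as a description. The 240 assigned genes had a median length of 148 bp, against 141 bp over all 8056, and 86.7% of them were at most 300 bp long, against 92.7%. The longest, C30E1.9 at 14770 bp, had 3 peaks with signals of 193, 103 and 95.5. The shortest were K08F11.7 at 19 bp, C05D2.13 at 49 bp and Y71F9AL.21 at 51 bp, with signals of 218, 100 and 131.

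Many of the peaks could equally be placed at a neighbouring gene. A protein-coding 5′ end lay within 500 bp of 110 of the 252 summits (43.7%), against 43.1% of all nuclear peaks. The noncoding gene was on the strand of that coding gene in 37 cases and on the other strand in 73. No such split is given for noncoding genes without a peak, so a strand preference of the peaks cannot be read from it. The median relative signal was 1.04 ± 0.00206 (SD, n = 2) in these 110 and 1.14 ± 0.0588 in the 142 away from such ends. The peaks away from such ends were higher in both replicates. Of the 14 strongest peaks, 6 were near a protein-coding 5′ end and 8 away, much as over the whole class (110 and 142 of the 252). Further, 84 summits had more than 1 noncoding RNA gene within 250 bp, and 22 would move to another gene if the nearest 5′ end were used.

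Among the neighbours, cytosolic ribosomal protein genes had 5′ ends within 500 bp of 9 of the 252 summits (3.57%), against 49 of all 2926 (1.67%). The strongest was rps-3A, beside F56F3.11, with a relative signal of 3.01 and 4.23 (3.62 ± 0.864, SD, n = 2). The other 8 had signals of 90.3 to 199. Heat shock genes accounted for 3 summits, with hsp-1 near F26D10.23 (377), hsp-110 near C30C11.14 (305) and hsp-6 near C37H5.15 (202). That was 1.19% of the class, against 0.273% of all nuclear peaks (8 of 2926). Respiratory chain genes also accounted for 3 (1.19%, against 0.547%). Histones and translation factors accounted for 2 each (0.794%, against 0.342% for histones and 0.478% for translation factors). Collagens, splicing factors and nuclear hormone receptors accounted for 1 each (0.397%), against 0.103%, 0.308% and 0.342% of all nuclear peaks in that order. Mitochondrial ribosomal protein genes and argonautes had 0, against 0.410% and 0.103%. Each count is small, and these lists describe neighbourhood alone.

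By position in the coding annotation, 188 summits (74.6%) were intergenic, 54 (21.4%) intronic and 10 (3.97%) exonic, against 63.4%, 27.3% and 9.39% of the other nuclear peaks. In 21 of the 54 introns the noncoding gene was on the strand of its host and in 33 on the other, again without a split for genes lacking a peak. The X chromosome held 50 of the 252 peaks (19.8%, interval 15.1 to 25.3%), against 18.8% of all nuclear peaks. It carries 2565 of the noncoding genes, and 62 of these (2.42%) had a counted summit. The share on the autosomes ran from 3.79% on chromosome IV to 5.50% on chromosome II. Chromosome II also held 7 of the 14 strongest peaks, in 5 of the 11 strong regions, while chromosomes III and IV held 0. Of all nuclear peaks, chromosome II held 15.1%, III 15.5% and IV 18.4%. The counts of strong peaks are small, and the summit of signal 7704 at B0361.13, left out by the rule, is on chromosome III.

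Words common before snRNA genes were less frequent at these summits than over all nuclear peaks. The 10 most frequent 8-letter words in the 120 bases before 82 snRNA and SL RNA genes with a nearby summit were CGGAACCC, GCGGAACC, GGAACCCG, TGTCGGTA, CGGTACAC, GTCGGTAC, TCGGTACA, GAACCCGC, AAACCCGC and AACCCGCA. They overlap each other. At least 1 of them, on either strand, lay within 100 bp of 11 of the 252 summits (4.37%) and of 3 of the 14 strongest. The share was 14.9% over all nuclear peaks, which include those at the snRNA and SL RNA genes the words came from. It was 1.98% in 26053 pooled candidate regions that overlap no IDR peak. Of 36 noncoding RNA genes with any of these words in the 100 bases before them, on the gene's strand, 7 (19.4%) had a counted summit. Over all 8056 genes that share was 3.97%.

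Shorter words were more frequent. TGTCNG, searched on both strands, lay within 100 bp of 111 of the 252 summits (44.0%), against 45.7% of the other nuclear peaks and 23.6% of the candidate regions. Among the 14 strongest it was found at 10. TGTCGG lay at 48 summits (19.0%), against 25.4% and 6.99%, and at 5 of the 14 strongest. TATATA lay at 25 summits (9.92%), against 6.10% and 9.55%, and at 8 of the 14 strongest. TGTCNG and TATATA were chosen after sequences at the strongest peaks had been seen. Their counts among the 14 therefore describe those same peaks. GTTCGANNC, the B box of internal promoters of RNA polymerase III, was found at 3 (1.19%), against 8.75% and 1.91%. The rule left out summits near tRNA genes, while the other nuclear peaks include them, so the rule itself shapes that contrast. CTGTTTCA, the upstream motif of piRNA genes, was found at 4 (1.59%), against 0.748% and 1.57%. TATAAA was found at 13.9%, against 17.1% and 24.5%, and TTTTT at 63.1%, against 77.8% and 83.8%.

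Taken from the side of the genes, the words before the 5′ end marked out genes with a peak more often than the 3.97% of all genes. Of 523 genes with TGTCNG in the 100 bases before the 5′ end, on the gene's strand, 43 (8.22%) had a counted summit within 250 bp. For TGTCGG it was 20 of 120 (16.7%), and for TATATA 27 of 292 (9.25%). With TGTCNG and TATATA together it was 8 of 17 (47.1%, interval 23.0 to 72.2%), and the median signal of the 8 was 2110. Those were mrpr-1, W01D2.7, W01D2.9, yrn-1, CD4.18, C15H11.12, M163.12 and M163.15, which include genes that share a summit. The other 9 genes with both words, such as F08G2.15, K05B2.9 and F35E12.11, had no counted summit. As the words came from the strongest peaks, these shares are a description of the same peaks.

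**Figure D5:**
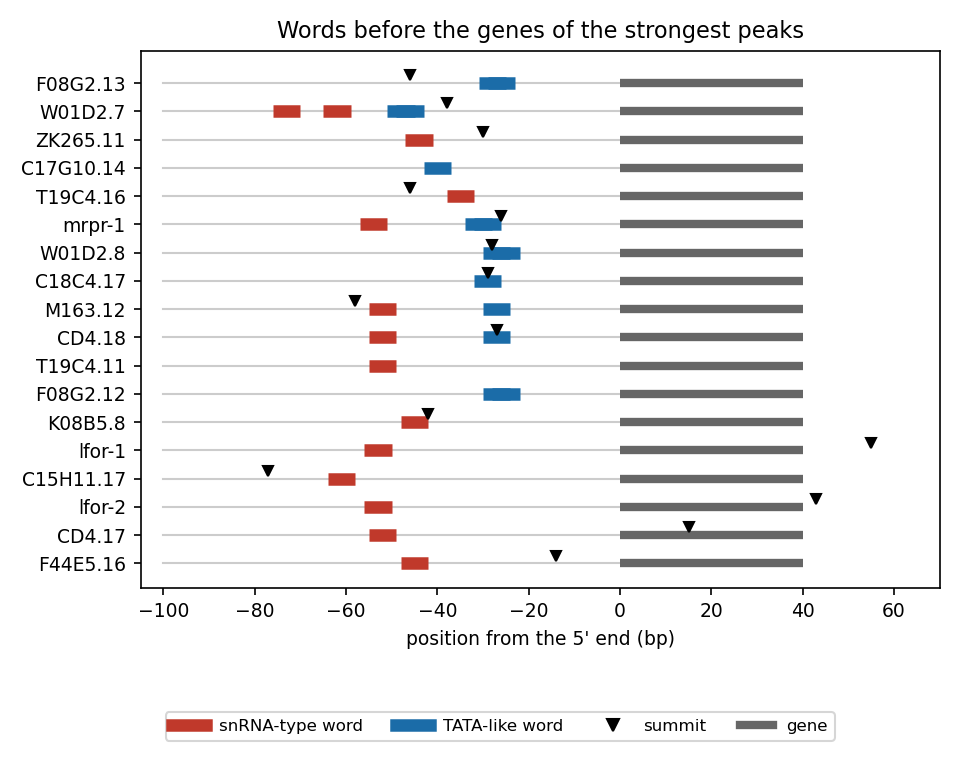
Positions of the snRNA-type word (red) and the TATA-like word (blue) in the 100 bp before 18 of the genes with the strongest peaks, strongest at the top, with black triangles for summits within the plotted range and grey bars for the start of the gene. The red words begin 38 to 76 bp and the blue words 28 to 51 bp upstream, and in genes with both the red word is farther from the gene.

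The limit of 250 bp and the authors' filter both cut through a continuous range. Just inside the distance limit lay summits at C49F8.10 (249 bp, signal 142), Y71F9AM.9 (247 bp, 332) and linc-108 (239 bp, 168). Just outside lay those at ZK930.13 (266 bp, 98.3), linc-54 (268 bp, 132) and linc-2 (273 bp, 128). Of 1469 pooled candidate regions that met the same distance rule, 252 (17.2%, interval 15.3 to 19.2%) passed the filter, against 10.1% of all 28979 nuclear candidate regions. The strongest that did not pass were at ZC518.6 (84.3), M03A8.6 (84.1) and F42G8.16 (84.1), just under the weakest counted peak. The rule also left out 279 of 531 summits near these genes because another RNA class was within 250 bp, in 190 cases a tRNA gene.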

How the data were processed

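Chromatin from 2 biological replicates of 1 group was sequenced, and the authors deposited lists of regions in builds ce10 and ce11. The ce11 lists were used. The signal is the score the authors' peak caller gave each region against a control, per the deposited listing. The deposited -log10 q-value of 3.90 was the same for all thresholded entries and ranked nothing. The deposited summit offset, another unit, was converted to 1-based positions. The sources used here name no aligner, peak caller or IDR threshold and hold no read counts, so depth is unknown. Candidate lists held 30000 entries each, for each replicate and for the pooled reads. The thresholded list was derived from them.

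Genes and sequences are those of RefSeq for WBcel235. A replicate's signal was that of the overlapping candidate region with the nearest summit, divided by the replicate's median at nuclear thresholded peaks (69.3 and 77.0). Where labels do not say that replicates came from separate cultures, SDs may be technical. With 1 group of 2 replicates no test was run. Intervals are exact binomial (Clopper-Pearson, 95%) and cover counting error only. Member calling and positions were tested on simulated data. Python 3.11.15, pandas 2.3.3, numpy 2.4.6, scipy 1.17.1, Biopython 1.88, edlib 1.3.9 and matplotlib 3.10.9 were used.

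The members, gene lists and words were chosen with earlier results of these data known. Named genes were the 15 strongest, the 3 strongest of each biotype and of those away from protein-coding 5′ ends, the 3 longest and shortest, the 3 least alike between replicates and the 3 on each side of the distance limit. Others, including genes sharing words, were named after their values were seen. Alternatives varied the distances, the list, the replicate, the overlap, the gene assignment and the motif window.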

Additional observations from a re-analysis of the deposited data

How the results depend on the processing

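In a stricter list of the strongest thresholded entries, 138 peaks were left of 252, the median signal relative to other peaks was 0.021 (log2) in place of 0.14, 99.3% were strong in both replicates in place of 78.2%, and 4.58% of genes had a summit in place of 7.66%. That gene share was 6.26% with a 100-bp limit and 8.93% with 500 bp. The upstream share, 33.7%, was 26.9% with the 100-bp limit and 41.7% with genes assigned by 5′ end. The share strong in both replicates was 55.2% when at least 50% of each region had to overlap. The share near protein-coding 5′ ends, 43.7%, was 23.4% within 250 bp. The snRNA-word share, 4.37%, was 7.94% in a window of 250 bp. These settings change, by construction, which peaks or genes are counted. Without the 14 strongest peaks, an alternative added after seeing the data, the median difference was 0.074. With 1 replicate left out it was 0.12 to 0.19, the peak count 247 to 255, the upstream share 33.3 to 36.0% and the gene share 7.31 to 7.47%. Over all alternatives, 30 values stayed within the stated error or 1.5 times the count. The words TATATA and those resembling snRNA promoters, and the words within genes, were also added after seeing the data. Leaving out peaks near spliced leader RNA genes gave no value, since those genes are annotated as snRNA and none of the 252 peaks is near one. No paired analysis was possible because there is 1 group. Depth is unknown, so weak peaks carry an unstated counting error.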

Other observations

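CD4.18 and CD4.19 point away from each other on chromosome V, and the shared summit lay 27 bp upstream of CD4.18 and 172 bp upstream of CD4.19. CD4.17, the next gene carrying the same words, had a weaker peak with its summit 15 bp past the 5′ end and a relative signal of 2.45 in replicate 1 and 3.79 in replicate 2 (3.12 ± 0.943, SD, n = 2). W03G11.8, which holds GGTCCGG at base 4 without GGGTTA 14 bases later, had no candidate region with a summit within 250 bp of its 5′ end.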
